A study of Rattus norvegicus with 8 samples.

Results

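The genes described here are 9 genes that mark type 1 alveolar cells, the thin flat cells across which the lung exchanges gas: Ager, Hopx, Cav1, Cav2, Rtkn2, Aqp5, Pdpn, Clic5 and Emp2. They were chosen by name, and their probes were found through the RefSeq accession that the array gives each probe. The 9 genes had 10 probes, of 13903 named genes and 24684 probes on the Arraystar rat lncRNA array, with 2 probes for Cav1 and 1 for each other gene. RNA had been taken at week 95 from male F344 rats. Normal lung (3 arrays) and lung tumor (3 arrays) both came from rats given NNK, a nitrosamine of tobacco that induces lung tumors, and the labels call the tumors matched and number tumors and normal lungs alike from 1 to 3. The tumors were moderately differentiated adenocarcinomas by the study's methods. Blood was a clot from whole blood, with 1 array for an untreated control rat and 1 array for a rat given NNK. No lung of an untreated rat was analysed here, so that every lung array carries the exposure to NNK. The description of the NNK blood array repeats that of tumor 3, while its title, source and tissue name the clot, and it was used as blood.

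Type 1 cells cover most of the alveolar surface with very little cytoplasm and lie against the capillaries. Type 2 cells, which make surfactant, are the progenitors that give rise to them, a step in which the YAP and TAZ coactivators act. Several genes of the set are also known from other cells of the lung: caveolins from capillary endothelium, podoplanin from lymphatic vessels and mesothelium, and Aqp5 from airway glands. In whole tissue, fewer cells of a type and less RNA per cell cannot be told apart.

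The 3 normal lung arrays differed from each other by less than the spot noise, with a mean squared difference of 0.466 to 0.788 times that expected from the spread between spots of 1 probe. Tumors 2 and 3 also differed by less than this noise (0.467 times), whereas tumor 1 stood apart from them (3.03 and 3.37 times). For a mean ± SD each set of near-identical arrays was therefore counted as 1 sample (normal lung n = 1, tumor n = 2), and p-values from the 6 arrays may measure technical spread only. By their shared scan time, the 3 normal arrays and tumor 1 lay on 1 slide and tumors 2 and 3 on another, so that the change within slide 1 is that of tumor 1 alone. The scanner software had marked 15.9% to 25.3% of the bright spots of the tumor arrays as outliers, against 4.92% to 8.62% in normal lung. Of the members' spots, 11 of 30 were marked in tumor and 1 of 30 in normal lung. Marked spots were left out in the primary comparison, and members that lost too many spots are given with marked spots kept.

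With the exception of Rtkn2, the type 1 cell genes had less signal in the tumors than in the matched lung. With marked spots left out, 6 of the 9 genes could be tested, and 4 of them (Ager, Hopx, Cav1 and Clic5) fell at least 2-fold at an adjusted p of at most 0.05 (limma, Benjamini-Hochberg over all probes tested). Over all 12471 probes tested, 15.5% were called lower. With marked spots kept, all 9 genes could be tested and 6 fell, Cav2 and Pdpn in addition, against 14.4% of 15803 probes. None of the 9 was called higher in these 2 fits, a call that 13.5% of probes received in each. In 8 of the 9 genes every tumor array lay below every normal array, and for Rtkn2 every tumor array lay above, against 34.7% and 38.3% of all probes. The median log2 fold change of the 9 genes was −1.41 with marked spots kept, and that of all probes was 0.064. With near-identical arrays counted once and marked spots kept, 5 of the 9 genes were called lower (8.52% of all probes), with Hopx at an adjusted p of 0.0502 and Ager at 0.0498, on either side of the line. That fit has 1 normal sample, so that its spread comes from the 2 tumor samples, pooled over probes, and nothing in it measures how normal lung varies. With the slide as a block and marked spots kept, 6 of 9 were called lower (12.6% of all probes) and Rtkn2 was called higher (13.3%).

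**Figure D1:**
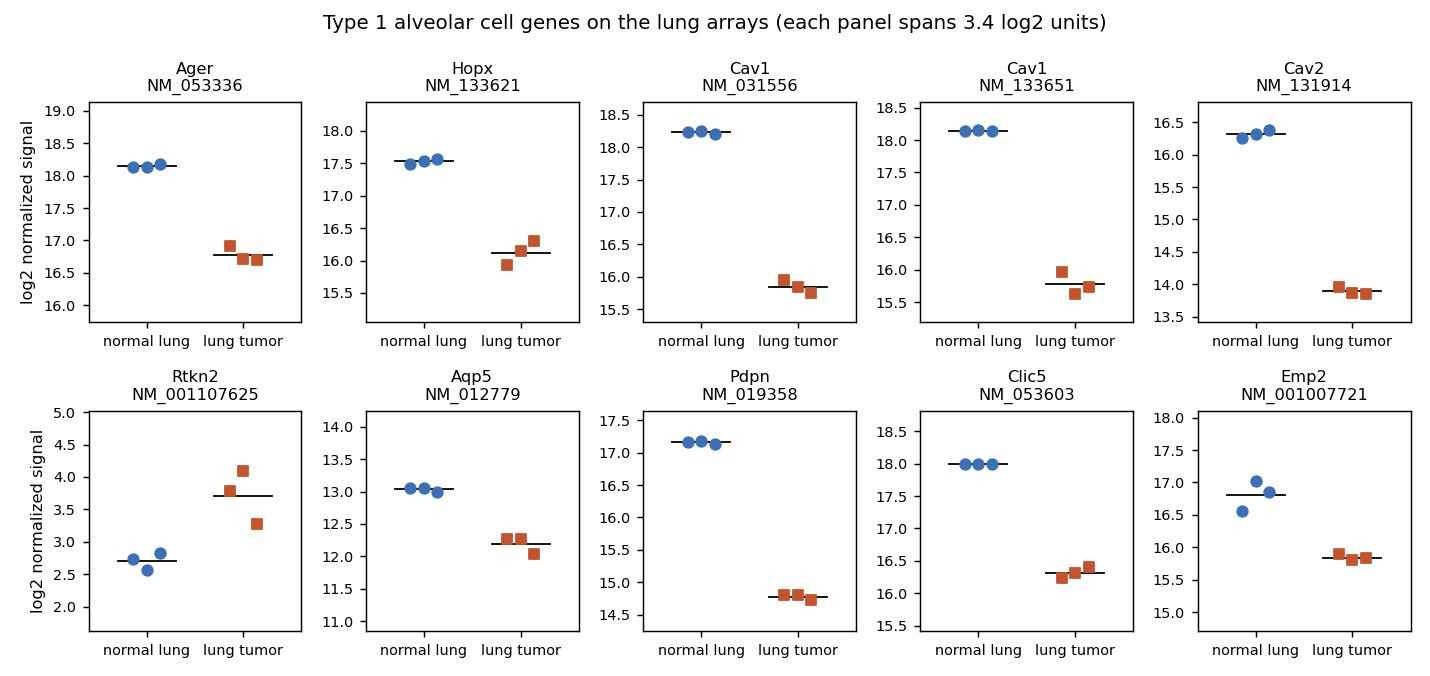
Log2 quantile-normalized signal (vertical axis, marked spots kept) of each of the 10 probes on the 3 normal lung arrays (circles) and the 3 lung tumor arrays (squares), with arrays 1 to 3 from left to right and a line at each group mean. Tumor arrays lie below normal arrays for every probe but that of Rtkn2, whose scale is far lower, and the 3 normal arrays nearly coincide except for Emp2.

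Ager encodes RAGE, a receptor that sits on the basal face of type 1 cells. Its log2 signal was 18.13, 18.14 and 18.18 on normal arrays 1 to 3 and 16.91, 16.71 and 16.70 on tumor arrays 1 to 3. The groups were separated by 1.22 log2 units, and tumor 1 lay 0.21 above the other tumors. Ager fell 2.59-fold (log2 fold change −1.37, standard error 0.076, adjusted p = 5.11e-05), and by −1.24 within slide 1. With near-identical arrays counted once, tumor was 16.81 ± 0.15 (SD, n = 2) against 18.15 in the 1 normal sample, and the adjusted p rose to 0.0556, so that the call was lost with marked spots left out. Under the authors' normalized values, which were scaled together with the blood arrays, the fall was 4.03-fold.

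Hopx, a homeodomain protein without DNA binding that marks type 1 cells early in their formation, gave log2 signals of 17.49, 17.54 and 17.57 in normal lung. In tumor they were 15.93, 16.14 and 16.30, and here tumor 1 was the lowest, 0.29 under the mean of the others. Hopx fell 2.66-fold (log2 fold change −1.41, standard error 0.11, adjusted p = 0.000156) and by −1.6 within slide 1. Counted once, tumor was 16.08 ± 0.21 (SD, n = 2) against 17.53, with an adjusted p of 0.0563. Of the other partners fixed with Ager and Pdpn, 8 were measured. S100a8, a calcium-binding ligand of RAGE from neutrophils, was called lower (−2.12 with marked spots kept), and Msn, a linker of podoplanin to the cytoskeleton, was called higher (1.03). The RAGE ligand Hmgb1 had a log2 fold change of −0.16 and was not called.

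Cav1, the main coat protein of caveolae, was among the genes of the set that fell most. The probe for NM_031556 gave 18.23, 18.25 and 18.20 in normal lung and 15.95, 15.84 and 15.75 in tumor, and it fell 5.03-fold (log2 fold change −2.33, standard error 0.067, adjusted p = 2.5e-05). Tumor array 3 carried a mark and did not enter this fit. The probe for NM_133651, marked on 2 tumor arrays, gave 18.14, 18.15 and 18.14 in normal lung and 15.96, 15.63 and 15.73 in tumor. With marked spots kept it fell 5.18-fold (−2.37, standard error 0.096, adjusted p = 1.48e-05). Both probes thus gave nearly the same change, and within slide 1 it was −2.27 and −2.18. Under the authors' normalized values the falls were 9.85-fold and 9.63-fold. With near-identical arrays counted once, the adjusted p values were 0.0351 and 0.0307.

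Cav2, which forms oligomers with Cav1 and needs it to reach the cell surface, gave 16.25, 16.32 and 16.38 in normal lung and 13.96, 13.86 and 13.85 in tumor, where 2 of its spots were marked. With marked spots kept Cav2 fell 5.39-fold (−2.43, standard error 0.064, adjusted p = 5.01e-06), by −2.36 within slide 1, and 7.39-fold in the authors' normalized values. Of 8 caveola partners on the array, 5 had signal above background. With marked spots kept 2 of these were called lower, beside 14.4% of all probes. Both are coat proteins of caveolae. Cavin2 fell by 2.18 and Cavin3 fell by 1.95 on the log2 scale. With marked spots left out, neither could be tested, and of the 2 partners that could, none was called. Ehd2, an ATPase at the neck of caveolae, was at −0.78, and the membrane-bending proteins Pacsin2 and Pacsin3 were at −0.55 and −0.03, none of them called. The probes of Cav3, Cavin1 and Cavin4 did not reach the signal filter.

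Pdpn encodes podoplanin, a mucin-like protein of the apical membrane of type 1 cells. It gave 17.17, 17.18 and 17.14 in normal lung and 14.81, 14.80 and 14.72 in tumor, so that the groups were 2.33 log2 units apart. Its spot was marked on all 3 tumor arrays, and a value exists only with marked spots kept: a 5.22-fold fall (−2.38, standard error 0.052, adjusted p = 3.66e-06), −2.35 within slide 1. Counted once, tumor was 14.79 ± 0.04 (SD, n = 2) against 17.16, with an adjusted p of 0.0283. The authors' normalized values gave a 7.78-fold fall.

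Cav1, Cav2 and Pdpn fell most, by nearly the same amount when scaled over the lung arrays, though Cav1 fell further than the others in the authors' values (9.85-fold against 7.39-fold and 7.78-fold). The bases before their starts are shown with those of Ager, which fell less. RefSeq (GRCr8) gave promoter windows for all 9 genes, with a second start for Cav1. Printed 5′ to 3′ on the strand of the gene are the 250 bases before the start of Cav1 (the upstream one of its starts, chr4:46606288-46606537, plus strand), Cav2 (chr4:46582431-46582680, plus strand), Pdpn (chr5:160918960-160919209, minus strand) and Ager (chr20:4155686-4155935, minus strand). Capitals mark GGGCGG, the GC box bound by Sp1 factors, or its complement in the first 3, and CCAAT or its complement in Ager.
Cav1: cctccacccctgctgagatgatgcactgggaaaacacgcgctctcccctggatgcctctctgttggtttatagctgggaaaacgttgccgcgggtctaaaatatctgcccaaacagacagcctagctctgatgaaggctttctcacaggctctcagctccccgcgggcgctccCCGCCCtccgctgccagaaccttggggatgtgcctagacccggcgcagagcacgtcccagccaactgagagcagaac
Cav2: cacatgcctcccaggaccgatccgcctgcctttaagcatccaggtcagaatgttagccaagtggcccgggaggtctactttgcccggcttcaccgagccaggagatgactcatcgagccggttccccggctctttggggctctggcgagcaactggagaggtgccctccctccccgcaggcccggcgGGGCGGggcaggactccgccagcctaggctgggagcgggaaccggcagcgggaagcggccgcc
Pdpn: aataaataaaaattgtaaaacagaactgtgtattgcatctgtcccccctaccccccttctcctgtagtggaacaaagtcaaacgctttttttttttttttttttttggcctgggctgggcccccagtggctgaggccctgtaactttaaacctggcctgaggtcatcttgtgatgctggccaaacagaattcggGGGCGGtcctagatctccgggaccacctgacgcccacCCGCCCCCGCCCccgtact
Ager: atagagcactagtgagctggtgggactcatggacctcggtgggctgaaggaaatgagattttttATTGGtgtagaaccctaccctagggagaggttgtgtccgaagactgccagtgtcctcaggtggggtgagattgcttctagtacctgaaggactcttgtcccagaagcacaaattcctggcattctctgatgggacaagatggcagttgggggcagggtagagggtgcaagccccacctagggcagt
Searched on both strands, GGGCGG was present in the windows of 7 of the 9 genes, those without it being Ager and Hopx, and in 30.5% of all 33469 RefSeq windows of this length. Pdpn held it 3 times, with 2 of these side by side. Emp2, below the 2-fold line, also held it 3 times, and Rtkn2, which did not fall, held it 4 times. Cav1 was counted for its upstream window, as the window of its second start held none. CCAAT was in the window of 1 of the 9 genes, Ager, and in 34% of all windows. GGAATG, the core bound by TEAD factors, and CTCAAG, a core bound by NKX2-1, were in none of the 9, against 12.1% and 13.3% of all windows. Each motif was counted on its own, also where matches overlap, and a match describes letters and not a bound site.

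Clic5, a chloride intracellular channel protein that links membranes to actin, gave 17.99, 18.00 and 18.00 in normal lung and 16.24, 16.31 and 16.41 in tumor. It fell 3.20-fold (log2 fold change −1.68, standard error 0.062, adjusted p = 1.43e-05), by −1.76 within slide 1 and 4.87-fold in the authors' normalized values. With near-identical arrays counted once the adjusted p was 0.0386, with the spread taken from 2 tumor samples. Among 4 relatives with enough signal, none was called: Clic1 was at 0.54 (marked spots kept), Clic2 at 0.09, Clic3 at −0.82 and Clic4 at −0.77.

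Emp2, a tetraspan protein that acts on integrins and caveolae, lay below the 2-fold line. Its signals were 16.56, 17.02 and 16.86 in normal lung, a range of 0.47 and the widest of the set there, and 15.89, 15.80 and 15.83 in tumor. Tumor was 1.96-fold lower (−0.97, standard error 0.13, adjusted p = 0.00147) and −0.92 within slide 1. Without normal array 1, the lowest of the 3, Emp2 was called lower (−1.10), and in the authors' normalized values it was 2.26-fold lower and called. Of its relatives, Pmp22, a tetraspan protein of myelin, fell by 1.06, Emp1 was at −0.97 and Emp3 at −0.36, the last 2 not called.

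Aqp5, the water channel of the apical membrane of type 1 cells, changed least of the 8 lower genes, except under 75th percentile scaling, where Emp2 (−0.96) changed less. It gave 13.05, 13.06 and 13.00 in normal lung and 12.27, 12.27 and 12.04 in tumor, with marks on 1 normal and 3 tumor arrays. With marked spots kept tumor was 1.80-fold lower (−0.84, standard error 0.082, adjusted p = 0.000385) and −0.77 within slide 1, short of the 2-fold call. Aqp1, the water channel of capillary endothelium and red cells, fell by 2.72 on the log2 scale with marked spots kept. Aqp3 (0.08) and Aqp4 (−0.36, marked spots kept), water channels of other epithelial cells, were not called. The other Aqp4 probe stood at −0.72 with marked spots kept, also not called. Within slide 1 the Aqp4 probes were at −0.68 and −1.11.

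Rtkn2, named as a type 1 cell marker, went against the label of the set. Its log2 signal was 2.74, 2.56 and 2.83 in normal lung, not well above background on any of the 3 arrays, and 3.78, 4.09 and 3.27 in tumor, well above background on all 3. The spread within tumor, 0.82, was the widest of the set. As normal lung has only a bound, Rtkn2 was at least 1.43-fold higher in tumor with the background subtraction used here. This sets tumor against the lowest signals well above background on the normal arrays (3.02 to 3.31), a range that holds tumor 3. The fitted difference was 1.00 (standard error 0.22, limma adjusted p = 0.0106), which fell just short of the 2-fold call before rounding. Within slide 1 the difference was 1.06. Counted once, the adjusted p was 0.0703, and after another background correction the difference was 0.19. Its relative Rtkn rose by 1.42 (standard error 0.084, adjusted p = 6.39e-05).

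**Figure D2:**
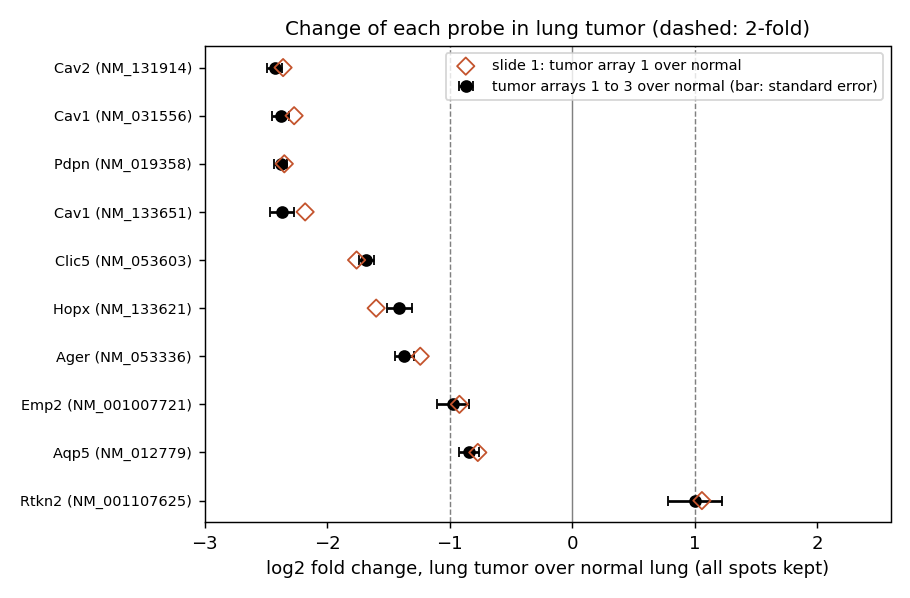
Log2 fold change of lung tumor over normal lung (horizontal axis, marked spots kept) for each of the 10 probes, with black points and bars for the fit over 6 arrays ± standard error and open diamonds for tumor array 1 over normal lung within slide 1. Cav2, Cav1 and Pdpn lie together near −2.4, Clic5, Hopx and Ager between −1.68 and −1.37, Emp2 and Aqp5 inside the dashed 2-fold lines, and Rtkn2 on the side of higher values.

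The changes differed in size among the 8 lower genes, and how they differed depended on the scaling. Over the 6 lung arrays they ran from −0.84 for Aqp5 and −0.97 for Emp2 through −1.37 for Ager, −1.41 for Hopx and −1.68 for Clic5 to −2.33 for Cav1, −2.38 for Pdpn and −2.43 for Cav2. In the authors' normalized values Aqp5 stood at −0.83, Emp2 at −1.17, Hopx at −1.85, Ager at −2.01 and Clic5 at −2.28. There Cav2 (−2.89) and Pdpn (−2.96) came before Cav1 (−3.30). Aqp5, Emp2, Ager, Hopx and Clic5 changed less than the caveolins and podoplanin on both scales, while the order of Ager and Hopx and that of Cav1, Cav2 and Pdpn changed. Differences in fall between genes were not tested.

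Other genes known from type 1 cells followed the set for the most part. Of 16 such genes 12 were measured, and with marked spots kept 8 were called lower and none higher, with a median of −1.36. Of all probes, 14.4% were called lower and 13.5% higher in that fit. With marked spots left out, 6 of 10 were called lower, with a median of −1.73, beside 15.5% of all probes. Spock2, a matrix proteoglycan, fell by 3.23, and Col4a4, a chain of the alveolar basement membrane, by 2.52. Akap5, an anchor of protein kinase A, fell by 2.33, and Timp3, an inhibitor of metalloproteinases, fell by 2.12. Sema3e, a guidance cue for vessels, fell by 2.10. Vegfa, through which type 1 cells act on capillaries, fell by 1.36, and its other 4 probes gave −1.29 to −1.41. With marked spots kept the adhesion molecule Icam1 was called at −1.35 and the cytochrome Cyp2b1 at −1.16. Not called were Igfbp2 (−0.70), Gprc5a (−0.60), Cldn18 (0.52), a claudin of alveolar tight junctions that type 2 cells share, and Lmo7 (0.76). Icam1 stood at −1.02 within slide 1, the value nearest to the 2-fold line among the 8 genes called.

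Of the YAP and TAZ branch, 7 of 11 genes were measured. The genes of the coactivators themselves, Yap1 and Wwtr1, had no matched probe, nor had Tead1 and Tead4. With marked spots kept 3 of the 7 were called lower and none higher, beside 14.4% of all probes called lower. Lats2, a kinase that restrains YAP, fell by 1.79, the matricellular target Ccn1 by 1.41, and Ajuba, an inhibitor of the LATS kinases, by 1.19. The target Ccn2 stood at −0.97, just under the call. Lats1 (−0.36), Tead2 (0.41) and Ankrd1 (0.27) were not called. Ankrd1 had a log2 signal of 3.29 in tumor 1 and 6.08 and 6.22 in tumors 2 and 3, against 4.82 to 4.98 in normal lung.

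Markers of other cells of the lung moved as well. The summed signal of the 9 type 1 genes in tumor was 30.3% to 31.2% of its mean in normal lung. For 7 endothelial genes it was 27.2% to 28.9%. With marked spots kept, 5 of 6 tested were called lower, beside 14.4% of all probes. Tek, the angiopoietin receptor, was at −2.74, Ramp2 at −2.64, Cldn5 at −1.94, Pecam1 at −1.88 and Emcn at −1.37. Esam (−0.56) was not called. Such a sum weighs the brightest genes most, here Tek, with a log2 signal of 17.26 to 17.33 in normal lung. Cdh5 was not well above background on any lung array. For 5 lymphatic genes the sum was 19.2% to 21.7%, and the 3 tested all fell, with the hyaluronan receptor Lyve1 at −4.08, Reln at −2.64 and Ccl21 at −1.84, while Prox1 and Flt4 were not well above background. For 3 mesothelial genes it was 11.3% to 12.3%, with Wt1 at −4.86, Msln at −3.07 and Upk1b at −2.99, all called. In normal lung these sums ranged from 97.1% to 104% of their mean. Caveolins and podoplanin are expressed in these cells too, and their part in the fall of Cav1, Cav2 and Pdpn was not tested.

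Markers of type 2 cells and those shared by epithelial cells did not fall with the set. Of 9 type 2 cell genes, 2 were called higher and none lower with marked spots kept, beside 13.5% of all probes called higher: Lpcat1, an enzyme of surfactant lipid synthesis, at 1.41 and the surfactant protein gene Sftpc at 1.14. The surfactant protein genes Sftpa1 and Sftpb stood at −0.26 and −0.30 and Etv5 at −0.12, not called. Napsa (0.99), Lamp3 (0.83), Slc34a2 (0.44) and Sftpd (0.36) were not called either, and the median of the 9 was 0.44. The summed signal of the 9 was 120% to 123% of normal lung. Of 6 tested markers shared by epithelial cells, 3 were called higher, Krt18 at 1.97, the claudin gene Cldn7 at 1.43 and Krt8 at 1.07, and the sum of all 7 on the array was 145% to 149%. Of 6 fibroblast genes, Pdgfra was called lower (−2.38) with marked spots kept, and the other 5 were not called. Dcn had a log2 signal of 9.68 in tumor 1 and 12.23 and 12.62 in tumors 2 and 3. Pdgfrb stood at −0.45, but at −1.57 within slide 1. The summed signal of the 6 fibroblast genes, which does not show these differences, was 91.3% to 95.8%. That of 6 airway genes, of which Scgb1a1 was the brightest and not called (−0.07), was 76.7% to 83.8%. Tppp3, a gene of ciliated cells, was called lower (−1.65) and the secretory genes Scgb3a1 (3.48) and Cyp2f4 (1.08) were called higher. The sum of 4 basal cell genes was 59.7% to 68.7%, with Krt15 called lower (−1.5) and Ngfr (2.95) and Tp63 (1.03) called higher, so that sum and median (0.98) differ in direction. Tp63 was counted by its brightest probe. Its other probes with enough signal stood at 0.84, 0.91 and 1.00 with marked spots kept, and only that at 1.00 was called. Summed heart muscle markers stood at 218% to 270%. With marked spots kept Tnnt2 (4.94), Actc1 (1.72) and Tnni3 (1.05) were called higher, Myh6 lower (−1.95), and Nppa was not called (−0.36). Actc1 was not well above background in normal lung. Summed adipocyte markers stood at 171% to 217%, where of 3 genes tested only Adipoq was called (5.27). Smooth muscle markers stood at 81.4% to 99.6% in sum. Red cell genes stood at 58.5% to 62.3%, with 3 of 4 called lower (14.4% of all probes), Hba-a2 (−3.12), Alas2 (−3.09) and Slc4a1 (−2.61). The brightest of them, Hbb, which weighs most in the sum, was not called (−0.57). Platelet genes stood at 151% to 177% in sum, though 3 of 4 were called lower, Ppbp (−2.67), Gp9 (−2.15) and Gp1bb (−1.91). Here the sum follows Pf4, the brightest, which was higher but not called (0.98). Ppbp and Gp9 were not well above background in tumor. The part of these cells in the members' values was not tested.

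**Figure D3:**
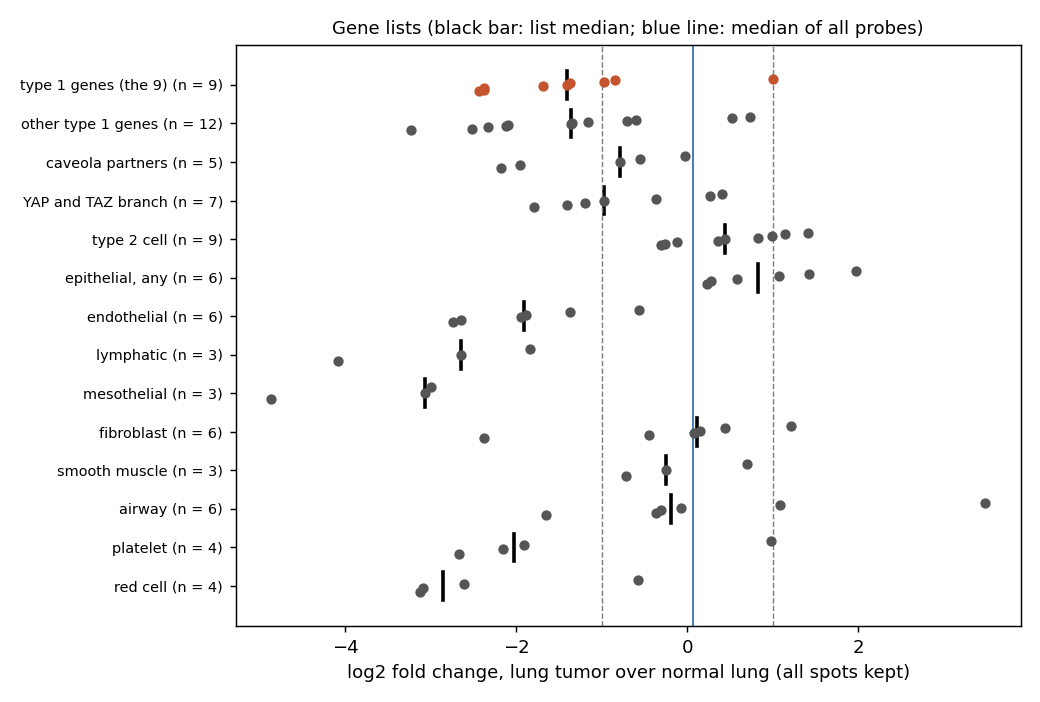
Log2 fold change of lung tumor over normal lung (horizontal axis, marked spots kept) for each gene of 14 lists, 1 point per gene, with a black bar at each list's median, a blue line at the median of all probes and dashed lines at 2-fold. The type 1, endothelial, lymphatic and mesothelial lists lie mostly to the left, and the type 2 and epithelial lists lie around 0 or to the right.

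Among 9759 probes of named genes with signal on all 6 lung arrays, the profiles most like that of Ager were those of Slitrk6, a neuronal membrane protein, Ccn3, a matricellular protein, Slc15a2, a peptide transporter, Ehd1, an endocytic ATPase, and Lbhd2. Their root mean square differences from Ager, after each profile was centred, were 0.023 to 0.033 log2 units over the 6 arrays, and their log2 fold changes ran from −1.41 to −1.34. Most like the median profile of the 6 testable members were the endothelial sialomucin Emcn (0.025), Prr7 (0.026), Vegfa (0.039), St3gal2 (0.047) and Pgm2l1 (0.047). With 2 groups of near-identical arrays, likeness here is mainly a like difference between tumor and normal lung.

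Blood, with 1 array a group and no test, served as a tissue that lacks alveolar cells. Of the 9 genes, 8 were well above background on all normal lung arrays, 9 on all tumor arrays, 5 in control blood and 4 in NNK blood. Cav2, Aqp5, Pdpn and Emp2 were below this mark in both blood samples. After quantile normalization over all 8 arrays, Emp2 was at least 6310-fold higher in normal lung than in control blood, Pdpn at least 8780-fold, Cav2 at least 4160-fold and Aqp5 at least 315-fold. Cav1 was barely above background in control blood, 9780-fold under normal lung by the probe for NM_031556, and not above it in NNK blood.

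Folds against blood depend on scaling, as the blood arrays were much dimmer, with a 75th percentile of the processed signal of 95.36 and 205.8 against 1191 to 1329 in lung. Ager was 213-fold higher in normal lung than in control blood and 341-fold higher than in NNK blood after normalization, and 1810-fold and 1170-fold higher in the processed signal as scanned. Hopx was the member with the smallest gap, 14.3-fold and 8.24-fold after normalization and 121-fold and 44.5-fold as scanned. Clic5 was 1020-fold and 336-fold higher after normalization. Rtkn2 ran the other way, with log2 signals of 11.10 in control blood and 9.95 in NNK blood against 2.52 to 2.78 in normal lung and 3.20 to 3.98 in tumor. It was at least 244-fold higher in control blood and at least 110-fold higher in NNK blood than in normal lung, and at least 23.9-fold and 27.7-fold higher as scanned.

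**Figure D4:**
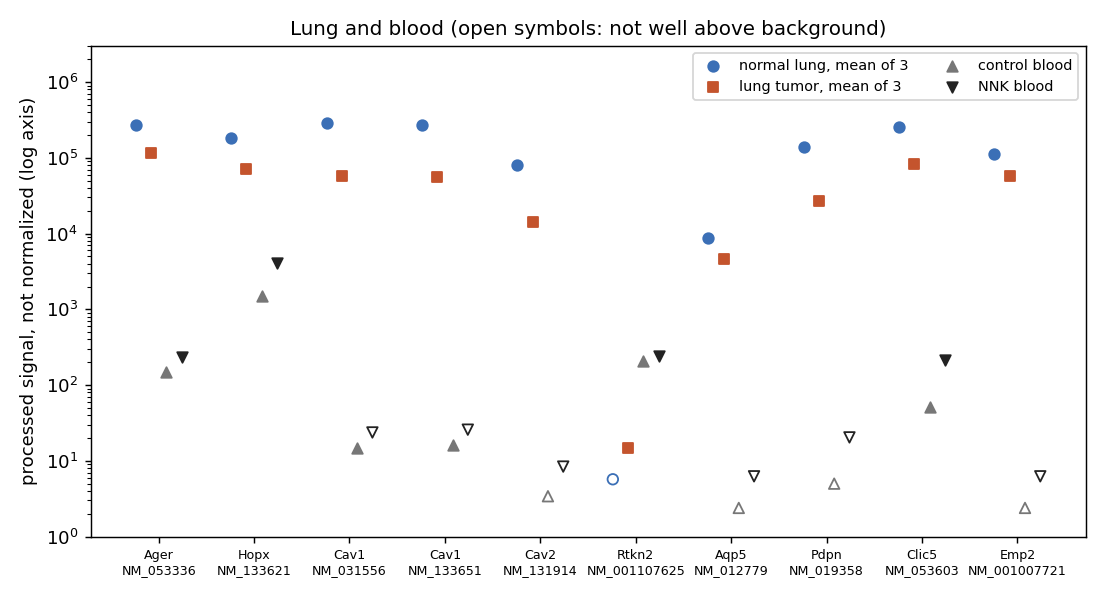
Processed signal as scanned (vertical axis, log scale, arbitrary units) of each of the 10 probes in normal lung and lung tumor (mean of 3 arrays each), control blood and NNK blood (1 array each), with open symbols where the probe was not well above background. Lung lies far above blood for every probe except that of Rtkn2, which is brightest in blood.

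Between the blood samples, 4 of the 9 genes were well above background on both arrays. Normalized within the pair, the log2 difference of NNK blood minus control blood was 1.11 for Hopx, 0.90 for Clic5, −0.42 for Ager and −0.79 for Rtkn2. Of the 11767 probes measured on both arrays, 17.9% lay 2-fold or more above control blood and 14.7% that far below it. Which of the 4 genes passed 2-fold depended on the scaling. Within the pair it was Hopx, while over all 8 arrays Clic5 (1.6) and Rtkn2 (−1.15) passed and Hopx (0.79) did not, and the authors' values gave 1.43, −1.09 and 0.74. Over the alternatives Hopx ran from 0.34 to 1.11, Clic5 from 0.57 to 1.6, Ager from −0.68 to −0.27 and Rtkn2 from −1.15 to −0.63. With 1 rat in each group these differences have no replicate check.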

How the data were processed

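The authors hybridised 1-colour Arraystar arrays and deposited, for each, the intensity of every spot from Agilent Feature Extraction 10.5.1.1. Its processed signal is background-subtracted but not normalized between arrays. The deposited log2 values were quantile-normalized by the authors over all 8 arrays and were used as an alternative. Their scale and direction were checked against the processed signals (r = 0.984 to 0.998), and the median of each column was 5.6 or 5.61.

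In R 4.3.3 the log2 processed signals of 42136 spots were brought to common quantiles across the 6 lung arrays, or across the blood pair or all 8 arrays where stated. Marked spots were left out and spots of a probe averaged. The filter kept a probe if 3 or more lung arrays had over 50% of its spots well above background (15803 probes), and it was tested where each group kept at least 2 values (12471 probes). No spot was saturated. Groups were compared with limma 3.58.1 (lmFit, eBayes), with Benjamini-Hochberg adjustment over all probes tested and a call at an adjusted p of 0.05 and 2-fold. A bound sets the brighter group against, per array, the dim probe's signal or the lowest one well above background, whichever is higher. Summed levels add the normalized signals of a list's probes on the linear scale, so that the brightest genes weigh most. The fit was tested on simulated data with independent arrays, 3 a group. Near-identical arrays were not simulated, so that this does not check the p-values of the real arrays. Precision is limited by how few arrays there are.

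Of the probes, 14294 were matched through RefSeq accessions to 13903 genes (GRCr8, names only). A gene with several probes was counted by its brightest. Outside the 9 genes, the text names up to 4 called genes per list with the largest change, the tested other type 1 genes, caveola partners and relatives, and the 5 genes most like Ager and the 5 most like the members' median. Hmgb1, Ccn2, other uncalled genes of the lists and the markers below background were named in addition, after their values were seen. The members and lists were chosen with earlier results of these data known, so that no list is independent evidence of its direction. The labels call the tumors matched and number both tissues from 1 to 3. Deviations of same-numbered arrays correlated at 0.143, −0.041 and 0.16, and those of differently numbered arrays at −0.189 to 0.14. Alternatives covered scaling, background, filter, floor, marked spots, the methods' t-tests, replicate and slide blocks, near-identical arrays and each array left out.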

Additional observations from a re-analysis of the deposited data

How the results depend on the processing

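All 9 genes kept their direction under every alternative run, and no value reversed. Over these alternatives the log2 fold change ranged from −2.01 to −1.24 for Ager, −1.85 to −1.31 for Hopx, −3.30 to −2.27 for Cav1 (NM_031556), −2.89 to −2.35 for Cav2, −2.96 to −2.14 for Pdpn, −2.28 to −1.64 for Clic5, −1.17 to −0.87 for Emp2, −1 to −0.62 for Aqp5 and 0.19 to 1.31 for Rtkn2. Except for Aqp5 and Rtkn2, the most negative value came from the authors' values, scaled together with the blood arrays. Of the 6 genes testable with marked spots left out, 4 were called lower, and 2 (Cav1 and Clic5) with near-identical arrays counted once. The authors' normalized values, where 9 genes could be tested, gave 7, Emp2 in addition. Leaving out 1 array at a time gave 3 to 5, or 6 to 7 of 9 with marked spots kept. The 3 arose without tumor 1 or tumor 2, where Cav1 kept too few unmarked spots, and the 5 without normal array 1. With marked spots left out, Rtkn2 was called higher under 75th percentile scaling (1.31), in the authors' values (1.07) and without normal 1, normal 3 or tumor 3. It passed 2-fold but not the adjusted p under the slide block (1.06, adjusted p = 0.0546) and counted once (1.02, 0.0703), and with marked spots kept the slide block called it (adjusted p = 0.0495).

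Over all probes, 1929 were called lower and 1683 higher. Leaving out 1 array gave 1712 to 2062 and 1470 to 1683, and with marked spots kept 2104 to 2542 and 1978 to 2355. The normexp background correction gave 1256 lower and 967 higher, and 1362 higher with marked spots kept, and the methods' paired t-test 1090 higher. Near-identical arrays counted once gave 976 lower and 778 higher, and with marked spots kept 1347 lower and 1090 higher, from fewer samples. For the other changes the cause was not tested. The replicate block, which pairs the tumors with the normal lungs of the same number, changed no call of the 9 genes (adjusted p of Ager 0.00187, of Rtkn2 0.0376 with marked spots left out). Alternatives with marked spots kept were chosen after seeing the data. Values near background, such as those of Rtkn2 in normal lung, carry little more than a bound.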
